A study of Mus musculus with 2 samples.

Results

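The lysosomal genes described here are 42 named genes: 30 lysosomal enzymes, 3 activator or granulin precursors, 2 cystatin inhibitors, 6 lysosomal or late endosomal membrane proteins, and the transcription factor Tfeb. They were taken by gene symbol from a named list, out of 55536 genes in the deposited gene tables. All 42 symbols matched a gene row, and the same genes have 236 annotated transcripts. The samples are polyadenylated RNA from mouse hippocampus, tissue labelled as a layer of that region, from adult mice at 6 months of age. They form 1 group of 2 libraries, labelled biological replicates 1 and 2, with no treatment and no mutant. The strain is given as B6NCrl in one field and C57BL/6 in another. A description calls the animals male, while the field for sex says that it was not collected. Each library was made from 20 ng of RNA by Nextera tagmentation, in which a transposase cuts the DNA copies and adds the adapters. The libraries have separate tissue records but share 1 donor identifier, and the labels do not say whether they came from separate animals, so p-values below measure only the difference between these libraries, which may be technical.

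Lysosomes are acidic organelles in which hydrolases break down proteins, glycans, sulfated sugars and lipids. Cathepsins and other proteases, glycosidases, sulfatases and lipid-cleaving enzymes work in the lumen, small activator proteins present lipids to some of them, and cystatins bind and block cysteine cathepsins. Heavily glycosylated membrane proteins line the organelle and carry channels and receptors, and Tfeb is a transcription factor known to switch on many of these genes through the CLEAR promoter element, whose core is the E-box CACGTG. Inherited loss of many of these enzymes causes storage disease that often affects the brain.

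The 2 libraries were of nearly equal depth, with 38921671 expected counts in replicate 1 and 39499357 in replicate 2. The libraries stood apart in choroid plexus markers. All 8 of 8 markers of that tissue (Ttr, Kcnj13, Folr1, Aqp1, Clic6, Kl, Otx2 and Slc4a5) were called higher in replicate 1, with log2 ratios from 2.89 to 6.97, and their levels summed to 15265 TPM in replicate 1, against 131 TPM in replicate 2. None of the 8 was at 0 in either library. The markers of hippocampal neurons were present, and the levels of 6 of them summed to 1797 TPM in replicate 1, against 2130 TPM in replicate 2. Over 7 microglial markers the sum was 535 TPM in replicate 1, against 563 TPM in replicate 2, over 6 astrocyte markers 1931 and 1910 TPM in the same order, and over 6 oligodendrocyte markers 3585 and 3969 TPM. Sums follow the most abundant gene of a list. Of the astrocyte markers 4 of 6 were higher in replicate 1 at an adjusted p under 0.05 by the exact test, with a median log2 ratio of 0.20, and Aldoc, which holds most of the sum, was at -0.08. Of the oligodendrocyte markers 3 were higher and 3 lower by the same test. All 6 neuronal, all 7 microglial, all 5 endothelial and all 5 meningeal fibroblast markers had ratios below 0. The medians were -0.22, -0.10, -0.33 and -0.23 in this order. The endothelial markers summed to 223 TPM in replicate 1, against 279 TPM in replicate 2, and the meningeal ones to 82.8 TPM, against 95.9 TPM. In a bulk sample, fewer cells of a type and less RNA per cell cannot be told apart.

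All 42 genes were detected at 1 TPM or more in both libraries. TPM is the level of a transcript per length, scaled to the same total in each library. Their median over genes was 51.2 TPM, against 11.8 TPM over the 13143 protein-coding genes with a mean count of at least 50. In all, 34 of the 42 lay above that second median, and 10 reached their 90th percentile. They summed to 16945 TPM in replicate 1 and 14210 TPM in replicate 2, or 1.69% and 1.42% of all TPM in the same order. Most of this sum was a single gene, Cst3, so the genes other than Cst3 are also given by class.

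Cst3 encodes cystatin C, a secreted inhibitor of cysteine cathepsins. It had 13084 TPM in replicate 1 and 10657 TPM in replicate 2, from 282626 and 237912 reads. Only 2 of the protein-coding genes tested had a higher mean level. It held 76.1% ± 1.57 (SD, n = 2 libraries) of the summed TPM of the 42 genes, and 53.0% of their reads in replicate 1 and 49.9% in replicate 2. The gene lies at chr2:148871722-148875692 on the minus strand (mm10), and 1 transcript, Cst3-201, held nearly all of its reads. Cstb, which encodes the cytosolic inhibitor cystatin B, had 113 TPM in replicate 1 and 93.2 TPM in replicate 2. Cystatin C transcripts were thus far more abundant than those of cystatin B, and both genes were higher in replicate 1, by 0.26 and 0.23 on the log2 scale.

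The 11 proteases had the highest class median apart from the cystatins, 105 TPM. Ctsd, the aspartyl protease cathepsin D, had 538 TPM in replicate 1 and 396 TPM in replicate 2. Ctsb, the cysteine protease cathepsin B, had 389 and 335 TPM in the same order. Ctss, a cysteine protease known from microglia, had 136 and 137 TPM. The ranges of these 3 over the libraries did not overlap, so their order held in both. Below them Lgmn, the asparaginyl endopeptidase, had 133 TPM in replicate 1 and 125 TPM in replicate 2, and Tpp1, the tripeptidyl peptidase lost in a form of neuronal ceroid lipofuscinosis, had 91.6 and 110 TPM. Ctsz, Ctsa, Ctsl and Ctsf lay between 88.9 and 124 TPM. In the order of means Ctsz, Ctsa, Tpp1 and Ctsl, neighbours could not be ordered because the range of each overlapped that of the next. The range of Ctsa, 104 to 106 TPM, did lie above that of Ctsl, 94.9 to 102 TPM. Ctsh, an aminopeptidase, had 23.3 and 20.3 TPM. The lowest was Ctsc, a dipeptidyl peptidase that activates granule serine proteases in blood cells, with 13.3 TPM in replicate 1, against 7.65 TPM in replicate 2.

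**Figure D1:**
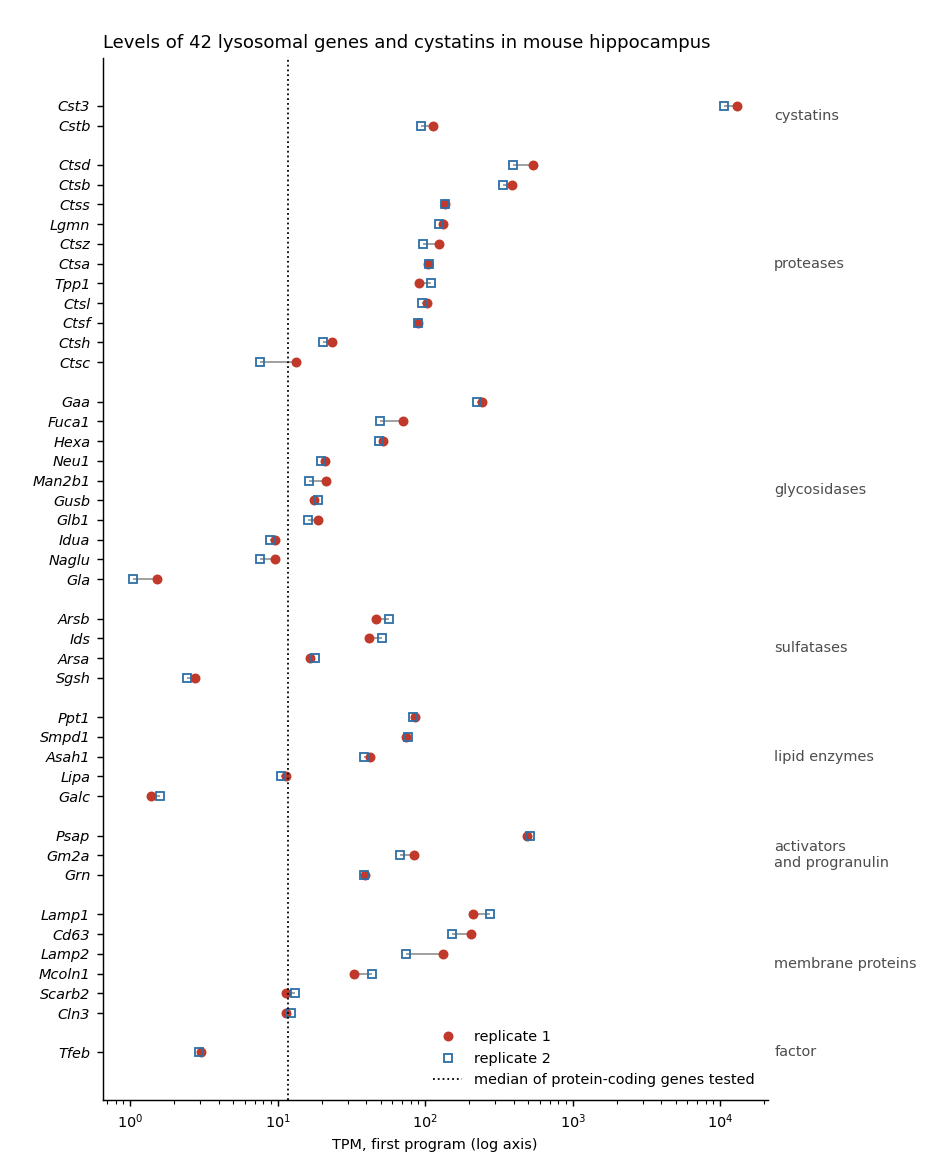
Level of each gene in TPM (log axis) in replicate 1 (filled circles) and replicate 2 (open squares), by class, with the line between them showing the range. The dotted line is the median of the protein-coding genes tested, 11.8 TPM; Cst3 stands apart, at 13084 and 10657 TPM, and Gla and Galc are lowest.

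The 10 glycosidases had a median of 18.5 TPM. Gaa, the acid alpha-glucosidase that degrades glycogen, was highest in its class at 243 TPM in replicate 1 and 225 TPM in replicate 2. Fuca1, the tissue fucosidase, had 70.8 and 49.8 TPM, and Hexa, the alpha subunit of beta-hexosaminidase, had 51.6 and 48.9 TPM, so these 2 overlapped. Gla, the alpha-galactosidase A that cleaves globotriaosylceramide, had the lowest mean of the 42 genes by the first program, at 1.52 TPM in replicate 1 and 1.05 TPM in replicate 2. The sialidase Neu1, the mannosidase Man2b1, the glucuronidase Gusb and the galactosidase Glb1 lay between 16.0 and 21.2 TPM, each overlapping the next, and Idua and Naglu, which degrade glycosaminoglycans, between 7.66 and 9.68 TPM.

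Of the 4 sulfatases, Arsb, which acts on dermatan sulfate, had 46.8 TPM in replicate 1 and 57.3 TPM in replicate 2, and Ids, the iduronate sulfatase, had 41.4 and 51.2 TPM. Arsa, which degrades the myelin lipid sulfatide, had 16.5 and 18.0 TPM. Sgsh, the heparan sulfamidase, was lowest with 2.77 and 2.44 TPM. Of the 5 lipid enzymes, the palmitoyl thioesterase Ppt1 had 84.9 TPM in replicate 1 and 82.7 TPM in replicate 2. Smpd1, the acid sphingomyelinase, had 74.8 and 76.1 TPM, and Asah1, the acid ceramidase, had 42.1 and 38.4 TPM. Lipa, the acid lipase, followed with 11.5 and 10.6 TPM, and Galc, the galactosylceramidase that degrades myelin galactolipids, had 1.39 and 1.59 TPM. None of these 5 ranges overlapped the next, so the order of the lipid enzymes was the same in both libraries. Gla and Galc were the only genes of the 42 below 2 TPM in a library.

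Psap, which encodes the precursor of the saposins, which present sphingolipids to their hydrolases, had 487 TPM in replicate 1 and 514 TPM in replicate 2, the highest mean of the 42 genes after Cst3. Its range overlapped that of Ctsd, 396 to 538 TPM, so these 2 genes could not be ordered. Gm2a, the GM2 activator, had 84.3 and 67.7 TPM. Grn, the progranulin gene, had 39.4 and 38.7 TPM, the smallest gap of the 3. Among the 6 membrane proteins, Lamp1, a major glycoprotein of the lysosomal membrane, had 210.2 TPM in replicate 1 and 274 TPM in replicate 2. Cd63, a tetraspanin of late endosomes, had 204 and 151 TPM, and Lamp2, the second major glycoprotein, had 132.0 and 73.7 TPM. Mcoln1, a calcium channel of the lysosomal membrane, had 33.0 and 43.6 TPM. Scarb2, the receptor that carries glucocerebrosidase to lysosomes, and Cln3, the protein lost in juvenile ceroid lipofuscinosis, lay between 11.4 and 13.1 TPM and overlapped. Tfeb itself was low, at 3.02 TPM in replicate 1 and 2.95 TPM in replicate 2.

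Between the libraries, the genes were compared as replicate 1 over replicate 2, by an exact conditional binomial test on rounded expected counts with Benjamini-Hochberg adjustment over all 14080 genes tested. This test covers counting error only. A gene was called when its adjusted p was under 0.05 and its log2 ratio at least 1 in either direction. By this rule 0 of 42 genes were called, against a background of 2.41% of all genes tested (1.97% higher and 0.433% lower in replicate 1). With the smaller size of 0.5 in place of 1, 3 were called, all higher in replicate 1, against a background of 10% (6.85% higher and 3.15% lower). By the exact test alone, 25 of 42 passed at an adjusted p under 0.05, 18 higher and 7 lower in replicate 1, where 46.8% of all genes tested passed (23.4% higher and 23.4% lower). This test passes smaller ratios where a gene has more reads, and 34 of the 42 genes lay above the median level given above. The shares that passed are therefore not directly comparable. With edgeR's exactTest at an assumed dispersion of 0.01, 0 were called at the larger size and 2 at the smaller. The median absolute log2 ratio was 0.14 over the 42 genes and 0.16 over all genes tested. The signed median was 0.06 over the 42 genes and -0.01 over all genes tested.

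Lamp2 (chrX:38401357-38456454, minus strand) had 8421 reads in replicate 1 and 4944 reads in replicate 2. Its log2 ratio was 0.78, with a 95% counting interval of 0.72 to 0.83 and an adjusted p of 1.19e-202 by the exact test. Ctsc (chr7:88278085-88310888, plus strand) had 950 reads in replicate 1 and 580 reads in replicate 2. Its log2 ratio was 0.72, with an interval of 0.57 to 0.87 and an adjusted p of 1.43e-20 by the exact test. Gla (chrX:134588149-134601125, minus strand) rests on few reads, 140 in replicate 1 and 99 in replicate 2. Its log2 ratio of 0.51 had an interval of 0.13 to 0.89 and an adjusted p of 0.0204 by the exact test. Gla was no longer called under 6 of the 9 alternatives tried, for example at 0.41 with the second program. Of these 9, 2 changed only the count minimum and could not change its ratio. The choroid plexus markers given above moved in the same direction as these 3 genes, 15265 TPM in replicate 1 against 131 TPM in replicate 2, and their part in these differences was not tested. The microglial sum, 535 TPM in replicate 1 and 563 TPM in replicate 2, went the other way. The 6 markers of border macrophages were low, with sums of 7.63 TPM in replicate 1 and 10 TPM in replicate 2. Most of both sums was Pf4, at 5.35 and 6.77 TPM in the same order. Only 2 of the 6 had a mean count of at least 50, both with ratios below 0. The part of these cells was not tested either.

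**Figure D2:**
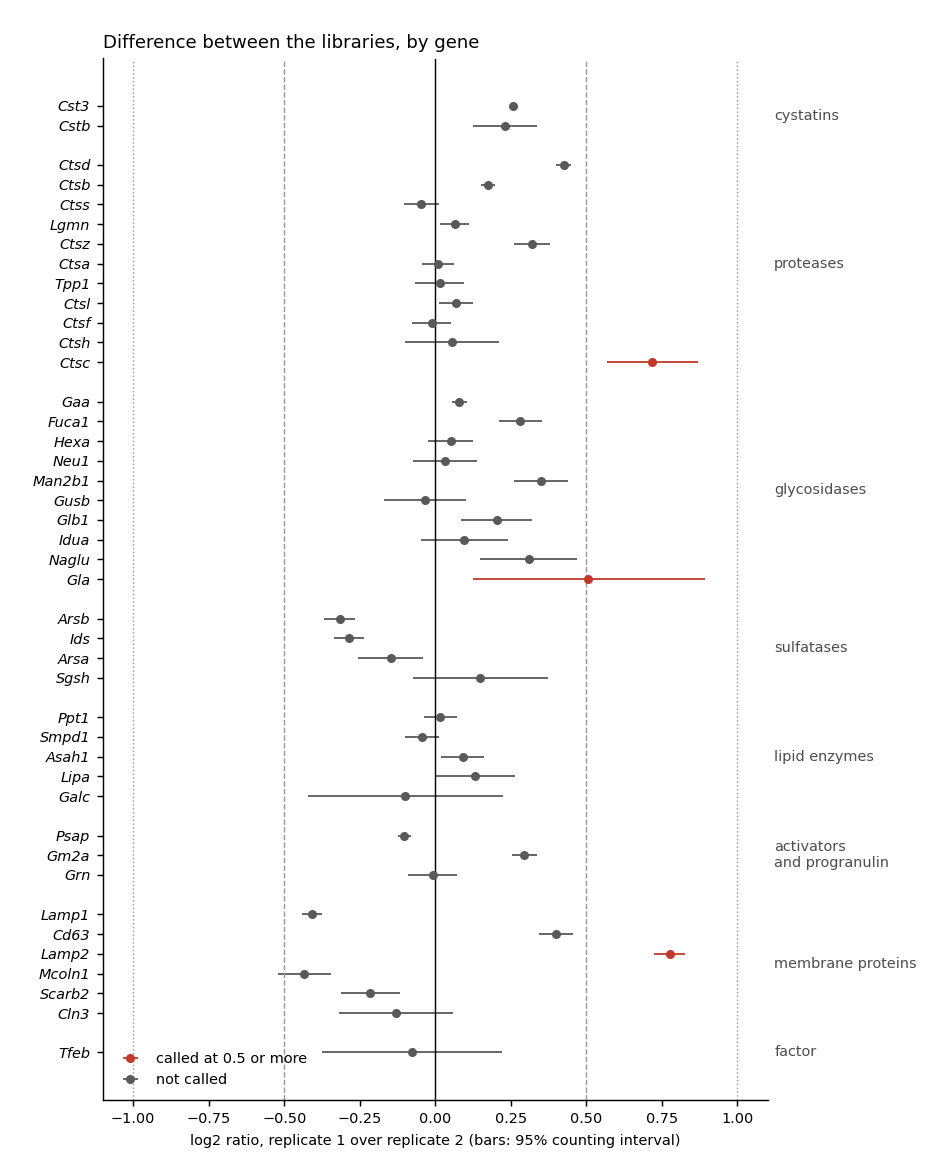
Log2 ratio of each gene, replicate 1 over replicate 2, with its 95% counting interval (bars), by class. Dashed lines mark 0.5 and dotted lines 1 in either direction; Lamp2 at 0.78, Ctsc at 0.72 and Gla at 0.51 are the called genes (red), and Mcoln1 at -0.43 is lowest.

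The classes are set side by side here as a description, with no test between them. Both cystatins, 9 of 10 glycosidases and 9 of 11 proteases had ratios above 0, with 6 of the glycosidases and 6 of the proteases higher in replicate 1 at an adjusted p under 0.05 by the exact test. Over all genes tested 49.2% of ratios were above 0, and by the same test 23.4% passed as higher and 23.4% as lower in replicate 1. The share that passes rises with the number of reads, so by itself it does not set a class apart from all genes. In TPM the signs of Ctsa and Tpp1 turned, to -0.02 and -0.26. Of the 4 sulfatases, 3 were below 0 and passed the same test (Arsb at -0.32, Ids at -0.29 and Arsa at -0.15). The membrane proteins split. Lamp2 and Cd63 were higher in replicate 1, at 0.78 and 0.40. Mcoln1 at -0.43, Lamp1 at -0.41 and Scarb2 at -0.22 were lower in replicate 1 at an adjusted p under 0.05 by the exact test, and Cln3 at -0.13 did not pass. By sign, the neuronal, microglial, endothelial and meningeal markers given above all had ratios below 0, and 5 of 6 astrocyte markers had ratios above 0. At an adjusted p under 0.05 by the exact test, 6 of 6 neuronal, 5 of 7 microglial, 4 of 5 endothelial and 3 of 5 meningeal markers were lower in replicate 1. By the same rule 4 of the 6 astrocyte markers were higher and 1 was lower. The part of these cell types in these differences was not tested. Ctsd, at 0.42, and the 4 genes Man2b1, Ctsz, Naglu and Gm2a, from 0.29 to 0.35, were the largest of the remaining positive ratios. All of these stayed under 0.5 in size.

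The Lamp2 difference was carried by its splice forms to unequal degrees. The gene ends in 1 of 3 alternative last exons, which give the forms A, B and C with different transmembrane and cytosolic tails. The form A protein is the receptor of chaperone-mediated autophagy. The coding parts of the 3 last exons are shown because they are the only part in which these transcripts differ in coding sequence. The lower-case bases end the shared exon before them, the capitals are the coding bases of each last exon without the stop codon, read on the minus strand from GENCODE M21 (mm10). Lamp2-201 (form A) uses chrX:38405435-38405571, Lamp2-202 (form B) uses chrX:38421715-38421851, and Lamp2-203 (form C) uses chrX:38402142-38402281.
Lamp2-201: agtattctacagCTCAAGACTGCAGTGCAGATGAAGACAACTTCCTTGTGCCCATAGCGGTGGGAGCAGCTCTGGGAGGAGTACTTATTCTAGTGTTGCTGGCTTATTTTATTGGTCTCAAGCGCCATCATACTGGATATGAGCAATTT
Lamp2-202: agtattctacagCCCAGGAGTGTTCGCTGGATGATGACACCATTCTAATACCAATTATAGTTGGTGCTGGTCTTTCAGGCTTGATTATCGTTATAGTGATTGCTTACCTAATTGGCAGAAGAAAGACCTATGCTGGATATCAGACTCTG
Lamp2-203: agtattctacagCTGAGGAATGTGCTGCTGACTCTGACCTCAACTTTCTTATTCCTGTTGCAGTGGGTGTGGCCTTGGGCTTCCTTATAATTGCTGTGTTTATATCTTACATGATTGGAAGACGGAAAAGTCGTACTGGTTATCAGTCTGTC

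By the first program, Lamp2-201 had 82.1 TPM in replicate 1 and 37.5 TPM in replicate 2. Lamp2-202 had 29.5 and 17.0 TPM in the same order, and Lamp2-203 had 20.2 and 19.1 TPM. Form A was thus well apart between the libraries, while form C was at nearly the same level in both libraries, with log2 ratios of TPM + 1 of 1.11 for form A, 0.76 for form B and 0.08 for form C. The second program gave 1.08, 0.85 and 0.21 for the forms in the same order. Form A held 62.2% of the gene's TPM in replicate 1 and 50.8% in replicate 2, and form C held 15.3% and 25.9%. Without form A, Lamp2 had 49.9 TPM in replicate 1 and 36.2 TPM in replicate 2, a log2 ratio of TPM + 1 of 0.45, and by the second program 40.8 and 27.5 TPM, a log2 ratio of 0.55. As shares of reads rather than TPM, form A held 48.1% in replicate 1 and 38.3% in replicate 2, and form B 36.9% and 37.0%; TPM divides each read count by transcript length. The forms were not tested, since the split of reads between them is an estimate of each program. The choroid plexus markers moved in the direction of form A, and their part in this was not tested.

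Psap also differed in its forms between the libraries while its gene total differed little, at a log2 ratio of -0.10. Its 2 highest transcripts, both coding, differ by a 9-base exon at chr10:60297537-60297545 on the plus strand, known to be alternatively spliced in the saposin B region. Psap-205 includes the exon and has 1671 coding bases, and Psap-202 lacks it and has 1662. The exon is in capitals, with the coding bases on either side in lower case.
Psap-205: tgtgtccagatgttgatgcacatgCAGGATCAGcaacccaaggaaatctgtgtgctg
Psap-202: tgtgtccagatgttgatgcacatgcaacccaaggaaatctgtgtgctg

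Psap-205, with the exon, had 324 TPM in replicate 1 and 408 TPM in replicate 2. Psap-202, without it, had 158 TPM in replicate 1 and 98.2 TPM in replicate 2. The form without the exon made up 32.4% of the gene's TPM in replicate 1 and 19.1% in replicate 2, and 27.7% and 15.7% by the second program. Both programs thus placed more of the shorter form in replicate 1, the library with the high choroid plexus markers, whose part in this difference was not tested. Psap-205 was the leading transcript in both libraries by both programs.

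**Figure D3:**
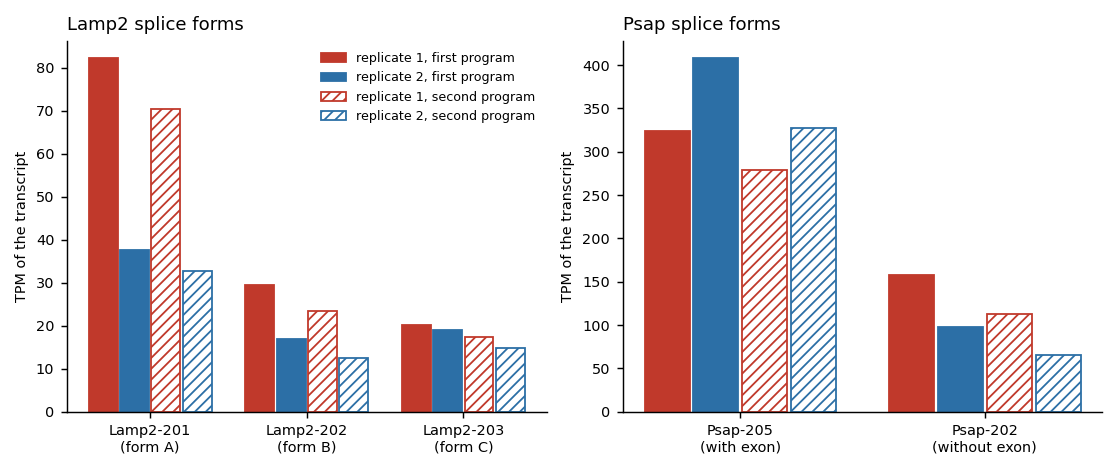
TPM of the Lamp2 forms A, B and C (left) and of the Psap forms with and without the 9-base exon (right), in replicate 1 (red) and replicate 2 (blue), by the first program (filled bars) and the second (hatched bars). Form A of Lamp2 has 82.1 and 37.5 TPM by the first program, and form C 20.2 and 19.1 TPM; the Psap form without the exon has 158 and 98.2 TPM.

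In a few of the genes most of the gene level was not in full coding transcripts. Of the 236 transcripts, 115 are annotated as protein-coding, 71 as retained intron, 37 as processed transcript without a reading frame and 13 as targets of nonsense-mediated decay. Cstb, Ctsz, Hexa and Gm2a have 1 transcript each, and Cln3 has the most, 19. The share of a gene's TPM in protein-coding transcripts with a complete reading frame had by the first program a median of 97.7% over the 34 genes with at least 2 transcripts and at least 5 TPM, against 91.2% over 8287 such protein-coding genes. In 3 of the 34 (8.82%) this share was below 50%, against 16.8% of the 8287. These 3 genes were Tpp1, Ctsh and Arsa. By the second program it was below 50% in 4 of the 34 (11.8%, against 18.9%), Tpp1, Arsa, Ctsb and Cln3, and Ctsh was at 57.5%.

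Tpp1 (chr7:105744811-105752235, minus strand) was the extreme case. By the first program its full coding transcript Tpp1-201 had 12.2 TPM in replicate 1 and 7.60 TPM in replicate 2, or 13.3% and 6.90% of the gene's TPM. The leading transcript was Tpp1-205, a processed transcript, in replicate 1, with 41.2 TPM there and 14.5 TPM in replicate 2. In replicate 2 it was Tpp1-204, a retained intron, with 12.2 TPM in replicate 1, against 50.6 TPM in replicate 2. By the second program another processed transcript led in both libraries, Tpp1-208, with 33.3% of TPM in replicate 1 and 36.2% in replicate 2. As a share of reads Tpp1-201 held 49.8% in replicate 1 and 31.8% in replicate 2. The gene's reads were nearly equal, 2545 in replicate 1 and 2533 in replicate 2, with a log2 ratio of 0.01, while its TPM was lower in replicate 1, 91.6 TPM against 110 TPM in replicate 2. The libraries and the programs thus divided the reads of Tpp1 differently among its transcripts, while the read total was close to equal.

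Arsa had similar transcript shares in both libraries, and most of its TPM was non-coding by annotation. Its retained-intron transcript Arsa-201 held 72.1% of TPM in replicate 1 and 74.2% in replicate 2 by the first program, and 59.3% and 62.0% by the second. The full coding Arsa-202 had 4.24 TPM in replicate 1 and 4.34 TPM in replicate 2. In Ctsh the programs disagreed on the leading transcript. The first program led with Ctsh-202, a target of nonsense-mediated decay with 123 coding bases, at 48.6% of TPM in replicate 1 and 42.8% in replicate 2. The second led with the full coding Ctsh-201, at 49.6% and 65.4%, against 18.2% and 28.2% by the first. In Ctsb the same disagreement ran the other way. The full coding Ctsb-201 held 51.4% of TPM in replicate 1 and 52.3% in replicate 2 by the first program, and 45.9% and 43.9% by the second, which put the retained-intron transcript Ctsb-202 ahead. By reads Ctsb-201 led in both programs, with 88.2% in replicate 1 and 88.4% in replicate 2 by the first.

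**Figure D4:**
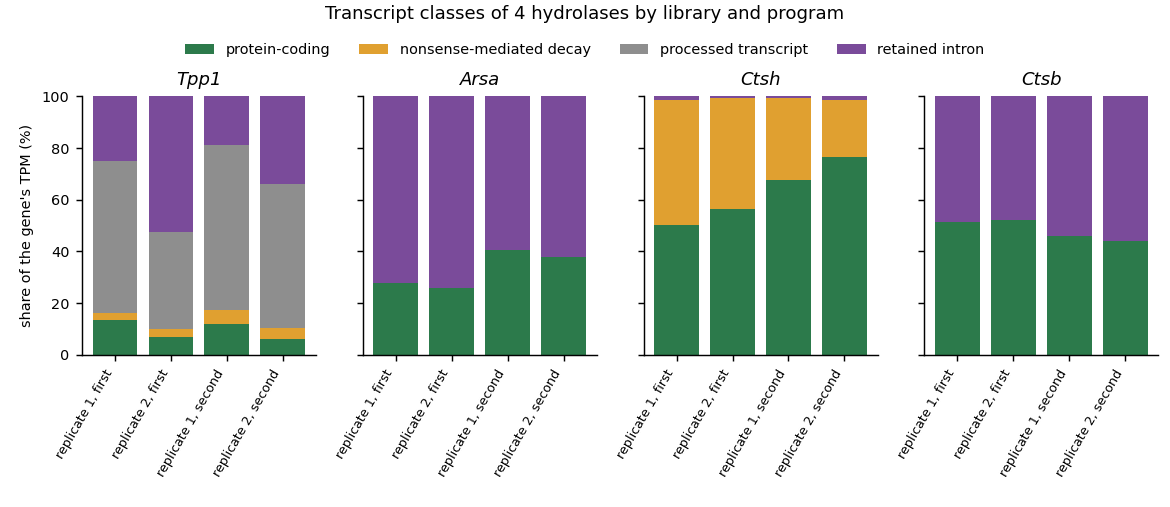
Share of each gene's TPM (percent) by annotated transcript class, for Tpp1, Arsa, Ctsh and Ctsb, in replicate 1 and replicate 2 by the first and second program. Protein-coding transcripts (green) hold 13.3% and 6.90% in Tpp1 by the first program, where the other classes trade places between the libraries.

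The programs put the same transcript first in 31 of the 34 genes in replicate 1 and in 30 of 34 in replicate 2, and differed in both libraries for Ctsb, Ctsh and Tpp1 (8.82%, against 5.20% of the 8287 background genes). In replicate 2 they also differed for Lgmn. The first program gave the same leading transcript in both libraries in 32 of the 34 (94.1%, against 92.1% of the background), and the exceptions were Lgmn and Tpp1. The second did so in 34 of 34 (against 91.7%). Lgmn-201 held 54.9% of TPM in replicate 1 and 48.0% in replicate 2, Lgmn-202 held 45.1% and 51.9%, and both have the same coding exons, with 1305 coding bases.

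At the gene level the programs differed less. None of the 42 genes differed by a log2 ratio of at least 1 in both libraries (first program over second, on TPM + 1), against 1.52% of all genes tested. The median over the 42 was 0.26 in replicate 1 and 0.29 in replicate 2, against 0.19 and 0.22 over all genes tested, so a shift toward higher values in the first program was general. Ctsf, a cysteine protease, had the highest ratio, with 89.2 TPM by the first program and 60.3 TPM by the second in replicate 1, and 88.9 and 59.1 TPM in replicate 2. The labels do not say whether counting used strand, so reads of a gene and of a gene on the opposite strand cannot be told apart where exons overlap. Exons of another gene on either strand overlap those of 16 of the 42 genes, 8 of them over at least 10% of their exon bases. Ctsd shares 34.4% of its exon bases with Gm49369 on the same strand, at 0.60 TPM in replicate 1 and 1.07 TPM in replicate 2. On the opposite strand, Ctsa overlaps Pltp, at 115 and 97.7 TPM, over 10.5% of its exon bases, and Ctsb overlaps Fdft1, at 56.9 and 56.7 TPM, over 12.8%. Lamp2, Ctsc and Gla are not among the 16.

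The promoters were searched for the letters of the CLEAR element, because Tfeb is one of the 42 genes. RefSeq promoter windows (GRCm38.p6, 250 bases before to 50 after the start site) matched 38 of the 42, and Asah1, Cstb, Ctsb and Ctsh were not matched. CACGTG, which reads the same on both strands, stood in the windows of 14 of the 38 genes (36.8%). Of the 10298 protein-coding genes with a window and a mean count of at least 50, 11.7% had it, and of all 27025 genes with a window, 8.09%. Per window this was 14 of 44 (31.8%), against 9.67% of windows of the expressed genes and 7.15% of all windows. TCACGTG on either strand, which contains CACGTG, was in 12 of 38 (31.6%), against 6.90% and 4.29% of genes in the same 2 backgrounds. The longer palindrome made of G, then TCACGTG, then AC was in Cln3 alone (2.63%, against 0.748% and 0.370%). These are matches of letters, not binding sites. The element is already known from many of these genes, so their higher share is not an independent finding.

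By class, CACGTG was in the windows of 5 of 9 matched proteases (Ctsa, Ctsd, Ctsf, Ctsl and Lgmn), 4 of 10 glycosidases (Gaa, Gla, Glb1 and Naglu), 2 of 4 sulfatases (Arsa and Sgsh) and 3 of 6 membrane proteins (Cln3, Lamp1 and Mcoln1). Of the 22 copies, 21 began before the start site, where most of the window lies (250 bases, against 50 after it). This split was not set against other genes. Of these 21, 14 lay within the 100 bases before the start site. In 10 of the 38 genes (26.3%) a copy lay within those 100 bases, against 5.54% of the expressed genes. There were 2 or more copies in 6 genes, and Lamp1 had 4. Windows of 30 bases around copies in these 6 genes are shown, from RefSeq (GRCm38.p6), as the strand of the gene reads, with the hexamer in capitals. The hexamer starts at -61 and -15 in the pair from Lamp1, at -71 and -45 in Mcoln1, at -121 in Cln3, at -98 in Ctsd, at -12 in Ctsa and at -194 in Gla, counted from the start site, with bases before it negative.
Lamp1, chr8:13159088-13159117 on the plus strand: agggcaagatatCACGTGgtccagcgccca
Lamp1, chr8:13159134-13159163 on the plus strand: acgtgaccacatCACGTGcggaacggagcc
Mcoln1, chr8:3500436-3500465 on the plus strand: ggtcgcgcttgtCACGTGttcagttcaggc
Mcoln1, chr8:3500462-3500491 on the plus strand: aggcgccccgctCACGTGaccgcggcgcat
Cln3, chr7:126583340-126583369 on the minus strand: cacgggtactgtCACGTGacccccaacctg
Ctsd, chr7:142387908-142387937 on the minus strand: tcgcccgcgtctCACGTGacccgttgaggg
Ctsa, chr2:164833749-164833778 on the plus strand: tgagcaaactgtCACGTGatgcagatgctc
Gla, chrX:134601182-134601211 on the minus strand: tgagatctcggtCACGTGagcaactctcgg

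**Figure D5:**
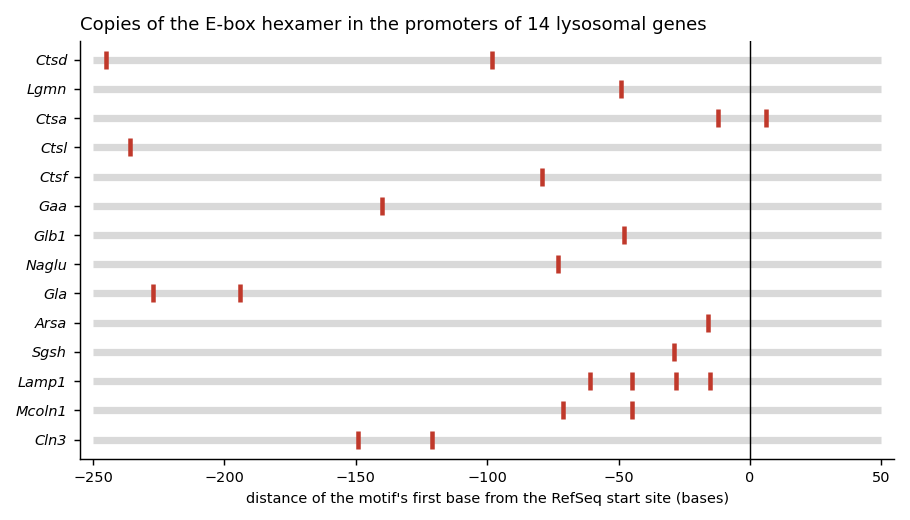
Position of each copy of the E-box hexamer (red ticks) relative to the RefSeq start site (0, vertical line) in the 14 genes that have one; grey bars span the window searched, from 250 bases before to 50 after the start. Lamp1 holds 4 copies, all before the start.

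The genes with and without the hexamer are set side by side by level and by the difference between libraries, as a description with no test. The median level of the genes with it was 63.7 TPM (range 1.29 to 467 TPM, n = 14), against 51.2 TPM in the 24 matched genes without it (1.49 to 11871 TPM), and the ranges overlapped. The median log2 ratio between the libraries was 0.07 with the hexamer and 0.02 without it. Of the genes with 2 or more copies, Lamp1 at -0.41 and Mcoln1 at -0.43 were lower in replicate 1, and Ctsd at 0.42 and Gla at 0.51 were higher. Lamp2 and Ctsc, called higher there, had none in the window searched.

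A further 41 lysosomal genes that are not among the 42 were read for comparison, of which 39 had a mean count of at least 50. Their median level was 18.3 TPM. Among the highest were Laptm4b, at 178 TPM in replicate 1 and 164 TPM in replicate 2, and Laptm4a, at 113 and 116 TPM in the same order, both lysosomal transmembrane proteins. The lowest was Tfec, a relative of Tfeb, with 3 reads in replicate 1 and 0 in replicate 2, where 3 reads is the limit that a count of 0 allows. In this list 1 of 39 was called at a log2 ratio of at least 1, against 2.41% of all genes tested, Mitf, another transcription factor of the Tfeb family. It had 3.43 TPM in replicate 1 and 1.43 TPM in replicate 2, a log2 ratio of 1.22 and an adjusted p of 4.25e-13 by the exact test. At 0.5 the count was 2, against 10% of all genes tested, with the mannosidase Manba the other, at 4.17 TPM in replicate 1 and 2.69 TPM in replicate 2, a log2 ratio of 0.61. Both were higher in replicate 1, the library with the high choroid plexus markers, whose part in these differences was not tested. Over the 39 genes 21 ratios were above 0 and 18 below it.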

How the data were processed

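The data are 2 libraries of polyadenylated hippocampal RNA, in 1 group. Per the file headers, the deposited gene tables hold an expected count, a TPM and an FPKM per gene in the RSEM layout, and the deposited transcript tables hold expected counts and TPM from this first program and estimated counts and TPM in the kallisto layout from a second. The assembly is mm10, per the labels, and the rows matched GENCODE M21 by identifier. The sources used here give no program name, version or strand setting. Rows that name no gene held 9 reads in replicate 1 and 6 in replicate 2 (2.31e-05% and 1.64e-05%) and were left out.

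Expected counts were rounded, and library sizes scaled by TMM (edgeR 4.0.16, R 4.3.3; factors 1.005 and 0.995). Transcript values of the second program were added up by gene. Genes with a mean count of at least 50 were compared by an exact conditional binomial test (two-sided), with Benjamini-Hochberg adjustment over all genes tested. It ran in Python 3.11.15 (scipy 1.17.1, numpy 2.4.6, pandas 2.3.3, matplotlib 3.10.9), with a prior count of 0.5 in log2 ratios. The test was tried on simulated libraries that held counting error only, as the test assumes. That trial cannot show how it behaves under other spread between libraries. Calls needed an adjusted p under 0.05 and a log2 ratio of 1 or more, or 0.5 or more, in either direction. Intervals at 95% cover counting error only, since they have no term for other spread between libraries. They also treat reads as independent molecules, which reads are not. Transcript shares, program ratios (TPM with a pseudocount of 1), FPKM medians and promoter letters were described with no test. Alternatives varied the scaling, the count minimum, the program, the prior count, the test, the unit and the library.

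The genes and lists were chosen with earlier results of these data known. Values are given in full for the 3 highest and the lowest gene of each class of more than 3, all genes of smaller classes, every called gene, genes whose leading transcript differs between libraries or programs, and the Lamp2 forms. Of the other lysosomal genes the 3 highest, the lowest and those called are given, except 1 gene that is not reported here.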

Additional observations from a re-analysis of the deposited data

How the results depend on the processing

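With 2 libraries of 1 group, precision is set by counting alone and spread between animals is not measured. No paired analysis was possible because there is only 1 group. Of the 42 genes, 0 were called at a log2 ratio of at least 1 under all 9 alternatives, and 2 or 3 at 0.5. The gene lost was Gla, in 6 of 378 alternative values of single genes. Of the rest, 360 kept their sign and stayed called or not called, and 12, from 5 genes near 0 that were never called, changed sign. The 2 alternatives with a lower count minimum or none could not change a ratio of the 42 genes, which all pass the minimum of 50. Their values in the 360 are therefore no sign of stability. With library totals Grn was at 0.0060 and Ctsf at 0.0016. In TPM Grn was at 0.023, Ctsf at 0.0040, Tfeb at 0.025, Ctsa at -0.018 and Tpp1 at -0.26. In FPKM Grn was at 0.019, Tfeb at 0.017, Ctsa at -0.023 and Tpp1 at -0.27, and Tpp1 was at -0.033 by the second program. The largest shift was 0.28, in Tpp1. Of the other lysosomal genes, 2 were called at 1 with a count minimum of 10 and 2 with none, against 1, and 0 by TPM or by FPKM with the size rule only. At 0.5, 1 was called by edgeR's exactTest with a dispersion of 0.01, and 3 each with a count minimum of 10, with none and by the second program, against 2. The median level of the 42 genes, 51.2 TPM, was 42.9 TPM by the second program, 40.1 in FPKM and 57.2 TPM without mitochondrially encoded genes. Leaving out either replicate gave 49.2 to 50.5 TPM. Of 210 alternative values of single levels, 94 moved by more than the SD between libraries and 116 did not. Leaving out a replicate cannot move a mean by more than that SD, so those values were fixed among the 116. In FPKM, which is another unit, 38 moved and 4 did not. By the second program 31 moved and 11 did not, and without mitochondrially encoded genes 25 and 17. In FPKM 41 of 42 reached 1. FPKM, and TPM without mitochondrially encoded genes, multiply the TPM of all remaining genes of a library by the same factor. The level shifts under these 2 alternatives were thus fixed by the unit and are no sign of sensitivity to the processing. The causes of the other shifts were not tested.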
